A study of Homo sapiens with 12 samples.

Results

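The chemokine genes CXCL1, CXCL2, CXCL3, CXCL5, CXCL8, CXCL12, CXCL16, CCL2, CCL5 and CCL20 were followed in MDA-MB-231 and Hs-578T, 2 established human lines of triple-negative breast cancer, which lacks hormone receptors and HER2 amplification. Members were chosen by gene symbol, and 9 of the 10 have an entry among the 32152 genes with values. CXCL5 was not analysed here. RNA was sequenced from 12 libraries, and in each line 2 bear the label ERK5-ko, 2 the label MEK5DD and 2 are parental controls, all taken at 70% confluence. The libraries labelled ERK5-ko come from cells given CRISPR/Cas9 guides against MAPK7, the gene of ERK5. MDA-MB-231-ERK5-ko is the progeny of a single surviving clone, and which Hs-578T-ERK5-ko clone was sequenced is not given in the sources used here. MEK5DD stands for a MEK5 that signals constitutively to ERK5, and how these cells were made is not given in the sources used here. Parental controls carry neither alteration.

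Chemokines are small secreted proteins that draw leukocytes along a concentration gradient by way of G protein-coupled receptors on the responding cell. CXCL1, CXCL2, CXCL3, CXCL5 and CXCL8 (interleukin-8) act on CXCR2, among other receptors, and recruit neutrophils. CXCL12 acts on CXCR4 and is scavenged by ACKR3, and CXCL16 is a membrane-bound ligand of CXCR6 that is shed by ADAM10. CCL2 acts on CCR2, and CCL20 acts on CCR6. The genes of the neutrophil-attracting group lie together on chromosome 4 and are textbook targets of the transcription factor NF-kB. Only RNA was measured here, so values concern transcript levels and not secreted protein.

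Values are RPKM, which corrects the reads of a gene for gene length and library size. The library totals lay between 20248162 and 27791195 reads, and at these totals 1 read on CXCL8 is worth less than 0.05 RPKM. Protein-coding genes that reached 0.5 RPKM in 2 or more libraries entered a limma fit on log2(RPKM + 0.5), and fold changes on this scale understate the change of low genes. An adjusted p is the Benjamini-Hochberg value of that test over all 13737 genes tested, and a gene is said to pass, rise or fall at an adjusted p under 0.05. Of the 9 members, 7 were tested, while CCL5 and CCL20 were under the filter. MAPK7 RNA was not lower in libraries labelled ERK5-ko (13.3 and 14.3 RPKM in parental and 16.3 and 17.8 in ERK5-ko libraries of MDA-MB-231, 14 and 16.0 against 17.8 and 18.1 in Hs-578T), so ERK5-ko refers throughout to the label. A frameshift made by CRISPR/Cas9 need not lower the RNA of its gene, and RNA levels therefore do not check this label. MAP2K5, the gene of MEK5, rose in the MEK5DD libraries of both lines, by a log2 fold change of 3.77 in MDA-MB-231 (186 ± 3.31 against 13.2 ± 0.496 RPKM, mean ± SD, n = 2) and by only 0.50 in Hs-578T (22.5 ± 1.81 against 15.8 ± 1.65, n = 2). Passage labels were 29 and 30 in MDA-MB-231 parental controls and 7 to 11 in its other libraries, and 83 and 84 against 8 and 9 in Hs-578T, so passage and label cannot be told apart in a comparison with parental controls. ERK5-ko cells were also transfected, sorted and grown from single cells. These steps and the clone cannot be told apart from the ERK5-ko label either, nor in differences of its effect between the lines. The mesenchymal gene VIM was high in every library (at least 1598 RPKM). The epithelial genes EPCAM and KRT19 were near 0 in Hs-578T, whereas KRT8 and KRT18 had at least 27.9 and 141 RPKM in every library. ESR1 and PGR reached at most 0.12 and 0.348 RPKM, while ERBB2, the gene of HER2, lay between 27.8 and 56.8 RPKM. Of 7 leukocyte markers, CD3E had at most 1 read and PTPRC at most 13 reads in a library, and of 4 endothelial markers CDH5 had at most 1 read. Markers present at low levels were led by CSF1R among leukocyte genes (at most 6.13 RPKM) and PECAM1 among endothelial genes (at most 6.48 RPKM), and their part in the results was not tested. The summed RPKM of the 7 leukocyte markers was 8.23 to 8.94 in parental, 4.63 to 5.23 in ERK5-ko and 5.26 to 6.15 in MEK5DD libraries of MDA-MB-231, and 4.27 to 5.71, 2.76 to 3.10 and 2.90 to 3.10 in those of Hs-578T. That of the 4 endothelial markers was 2.32 to 2.46, 1.05 to 1.23 and 2.59 to 2.88 in MDA-MB-231, and 5.65 to 6.03, 6.69 to 6.75 and 3.22 to 3.49 in Hs-578T. In bulk RNA, fewer cells of a type and less RNA per cell cannot be told apart.

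The sequences just upstream of the RefSeq starts of CXCL1, CXCL2, CXCL3 and CXCL8 are shown because these 4 genes share a motif and moved upward together in MDA-MB-231 MEK5DD libraries. Each is the 150 bases before the RefSeq start in GRCh38.p14, read 5′ to 3′ on the gene's strand, at chr4:73869243-73869392 (+) for CXCL1, chr4:74099196-74099345 (-) for CXCL2, chr4:74038690-74038839 (-) for CXCL3 and chr4:73740419-73740568 (+) for CXCL8. By the gene coordinates that go with the RPKM values, the stretches of CXCL2, CXCL3 and CXCL8 lie partly within the gene. The marked sites of CXCL2 and CXCL3 fall in that part, whereas the stretch of CXCL1 ends just before its gene. Capitals mark matches to the kappa B motif GGAATTTCC and, in CXCL8, to the AP-1 motif TGANTCA.
CXCL1: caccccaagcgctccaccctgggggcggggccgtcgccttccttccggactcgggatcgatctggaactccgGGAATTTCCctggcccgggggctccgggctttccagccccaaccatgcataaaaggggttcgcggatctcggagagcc
CXCL2: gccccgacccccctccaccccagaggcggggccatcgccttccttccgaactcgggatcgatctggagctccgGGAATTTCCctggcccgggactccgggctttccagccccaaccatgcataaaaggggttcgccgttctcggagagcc
CXCL3: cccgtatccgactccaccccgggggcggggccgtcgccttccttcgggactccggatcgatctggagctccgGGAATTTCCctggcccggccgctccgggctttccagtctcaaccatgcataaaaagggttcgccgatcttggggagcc
CXCL8: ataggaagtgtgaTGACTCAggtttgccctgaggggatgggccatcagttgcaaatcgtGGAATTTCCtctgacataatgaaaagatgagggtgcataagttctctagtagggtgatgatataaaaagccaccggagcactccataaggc

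Both motifs were searched on both strands of the window from 250 bases before to 50 bases after the RefSeq start, and no match of one overlapped a match of the other. A window was at hand for 7 of the 10 members, those other than CXCL16, CCL2 and CCL5. The kappa B motif was found in 5 of these 7 windows, those of CXCL1, CXCL2, CXCL3, CXCL5 and CXCL8, and in 162 of all 35116 windows (0.461%). Its first base lay 78 bases before the start of CXCL1 and CXCL3, 77 before that of CXCL2, 90 before that of CXCL5 and 91 before that of CXCL8. The AP-1 motif was found in the window of CXCL8 alone, 137 bases before the start, and in 7.71% of all windows. Only exact matches to GGAATTTCC counted as kappa B, so a window without one may hold a kappa B site of another sequence. The genes with a match are those named above as textbook NF-kB targets, so their share is a description. The printed stretches of CXCL1, CXCL2 and CXCL3 were 86.1% to 88.7% identical to each other, which makes them related copies and not independent cases, whereas that of CXCL8 was 42.7% to 45.0% identical to theirs. The transcripts are alike too, since 4.81% of the 50-base stretches of CXCL1, 12.5% of those of CXCL2 and 6.01% of those of CXCL3 occur in another of the 3 genes in GENCODE 29, so a part of their reads cannot be assigned with certainty. No 50-base stretch of CXCL8, CXCL12, CCL2 or CCL20 occurs in another gene. CXCL16 overlaps MED11 on the opposite strand by 85 bases and CCL5 lies wholly within an antisense gene, and whether the counting used strand is not given in the sources used here.

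The lines differed in which chemokine they transcribed most. In each of the 6 MDA-MB-231 libraries CXCL8 made up most of the summed RPKM of the 9 genes, between 78.1% and 84.2% of it, followed by CXCL2 with 6.50% to 7.82%. In each of the 6 Hs-578T libraries CXCL12 came first, with 86.9% and 88.0% in parental controls, 73.7% and 81.4% in ERK5-ko and 56.9% and 73.7% in MEK5DD libraries. CCL2 or CXCL8 came next in Hs-578T, at 7.66% to 17.4% and 3.06% to 23.9%. The summed RPKM of the 9 genes was 35.2 and 35.8 in MDA-MB-231 parental controls and 429 and 408 in those of Hs-578T.

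**Figure D1:**
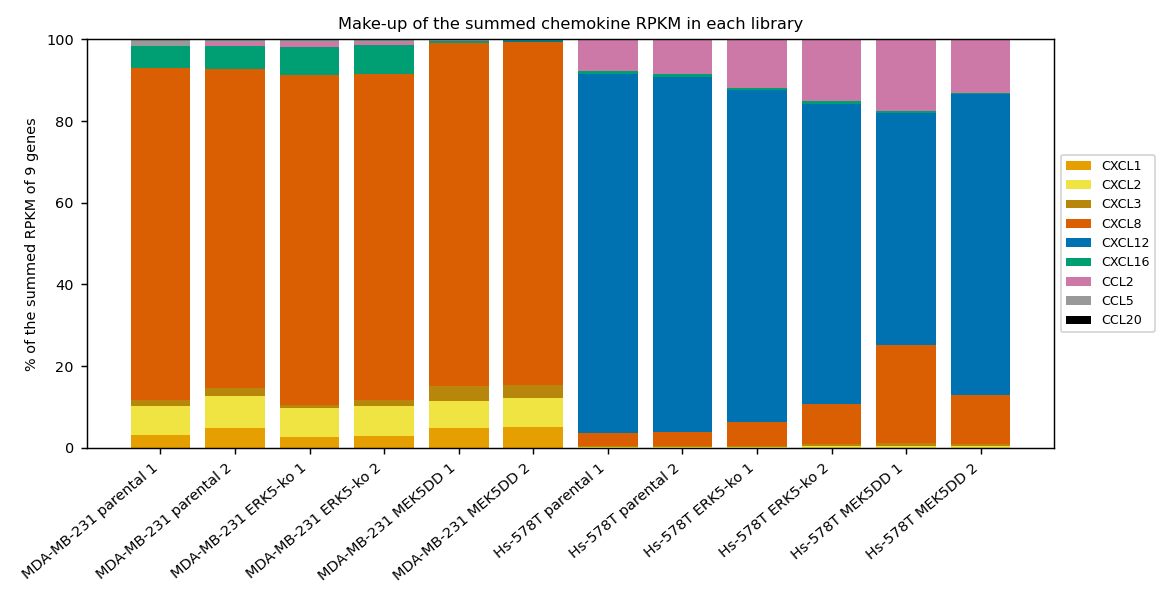
Share of each gene (colours) in the summed RPKM of the 9 chemokine genes, in percent, for each of the 12 libraries (bars). CXCL8 fills 78.1% to 84.2% of every MDA-MB-231 bar, and CXCL12 fills 56.9% to 88.0% of every Hs-578T bar.

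All 7 tested members passed between the parental controls of the lines, where 77.4% of all genes tested did. CXCL1 and CXCL12 met the filter only through the line where they are high, so their calls here are no independent result. CXCL1, CXCL2 and CXCL8 were higher in MDA-MB-231, as were 46.0% of all genes, and CXCL3, CXCL12, CXCL16 and CCL2 were higher in Hs-578T, as were 31.3%. The median log2 difference over all genes tested was 0.19 in this comparison and -0.02 after median-ratio scaling, so differences of that size rest on the scaling. CXCL12 had no read in either MDA-MB-231 parental library and 378 and 355 RPKM in those of Hs-578T, at least 3528-fold more when 3 reads per library are taken as the floor. CXCL1 had no read in any of the 6 Hs-578T libraries and 1.12 and 1.73 RPKM in MDA-MB-231 parental controls, at least 8.18-fold more. CCL2 differed by a log2 value of -5.70 (adjusted p = 1.24e-10), CXCL2 by 1.10 (adjusted p = 0.000351) and CXCL8 by 1.03 (adjusted p = 0.00386). The difference of CXCL3, -0.46 (adjusted p = 0.0433), was lost in 7 of the 12 fits that left out a library and is the least certain of the 7.

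**Figure D2:**
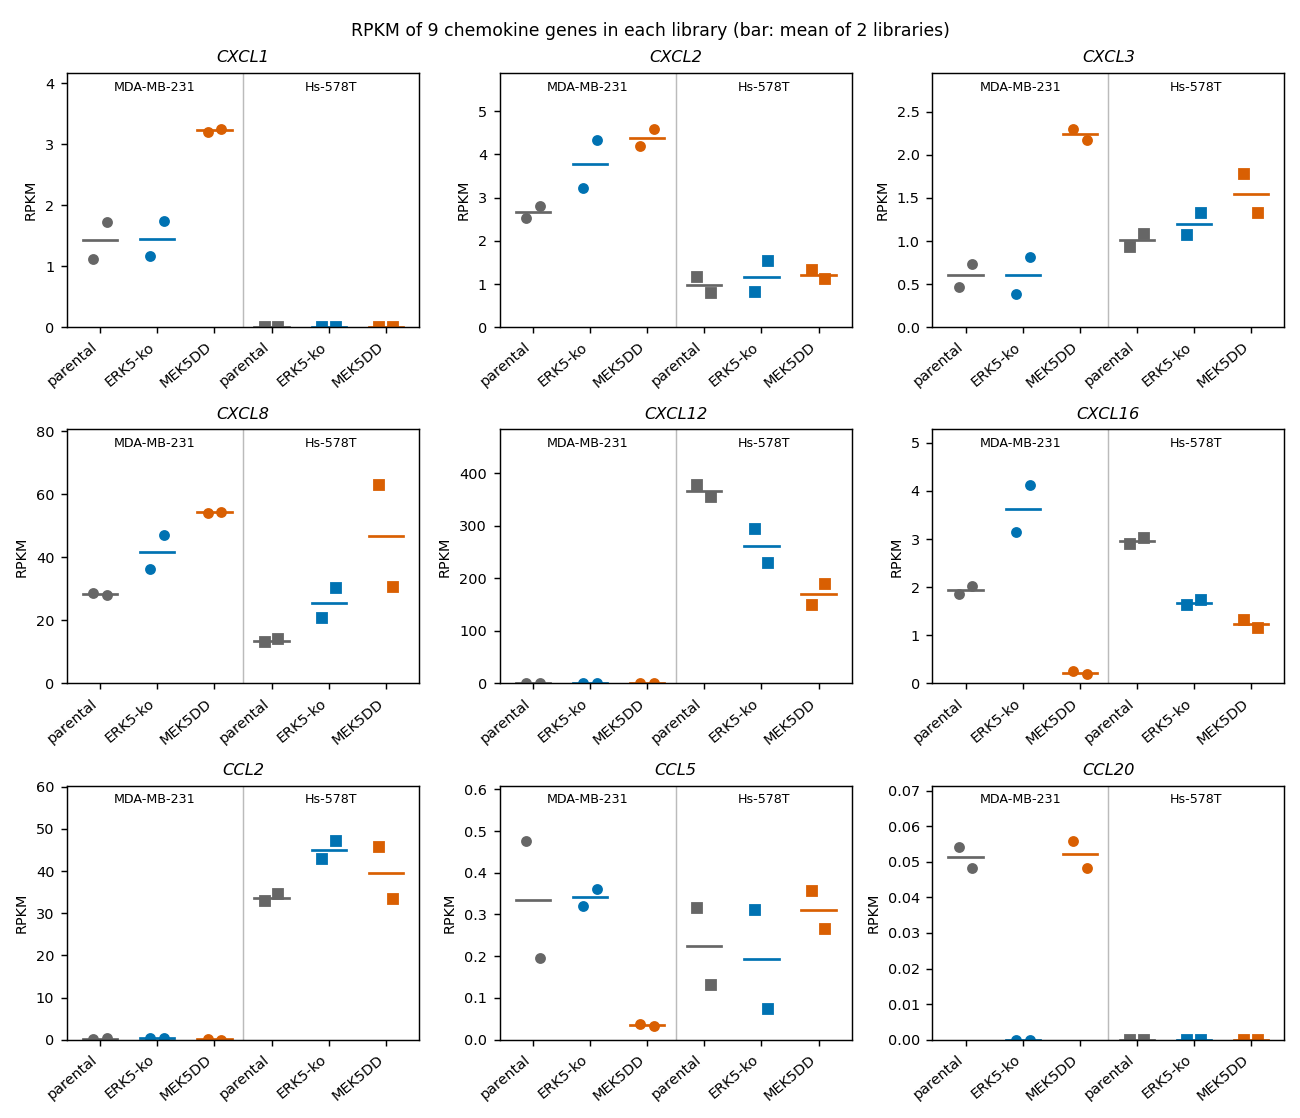
RPKM (vertical axes, linear and starting at 0, each with its own range) of the 9 chemokine genes in each library, by line (circles MDA-MB-231, squares Hs-578T) and label, with bars at the mean of 2 libraries. CXCL8 lies above both parental libraries in all ERK5-ko and MEK5DD libraries of both lines, CXCL12 is found in Hs-578T, and CXCL16 in MDA-MB-231 is highest in ERK5-ko and lowest in MEK5DD libraries.

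CXCL8 (ENSG00000169429.10, chromosome 4, 73740506 to 73743716 of GRCh38), the neutrophil attractant interleukin-8, was above its parental controls in all 8 engineered libraries. In MDA-MB-231 its RPKM was 28.7 and 27.9 in parental controls, 36.3 and 47.0 in ERK5-ko and 54.2 and 54.4 in MEK5DD libraries. In Hs-578T it was 13.2 and 14 in parental controls, 20.9 and 30.2 in ERK5-ko and 62.9 and 30.6 in MEK5DD libraries. The Hs-578T MEK5DD libraries thus lay far apart from each other, although both were above every other Hs-578T library. CXCL8 rose with MEK5DD in both lines, by a log2 fold change of 0.93 in MDA-MB-231 (standard error 0.267, adjusted p = 0.0156, limma) and 1.66 in Hs-578T (standard error 0.267, adjusted p = 0.00131, limma). With ERK5-ko it rose in Hs-578T, by 0.87 (adjusted p = 0.0236), and its log2 fold change in MDA-MB-231 was 0.54 (adjusted p = 0.201). The rise in MDA-MB-231 MEK5DD libraries lost its call without any 1 of the 4 libraries compared (adjusted p from 0.0644 to 0.0725), and that in Hs-578T ERK5-ko libraries without either parental library or without ERK5-ko replicate 2 (adjusted p of 0.0501 to 0.213). Without either Hs-578T MEK5DD library, whose distance from each other enters the shared estimate of the spread, the MDA-MB-231 ERK5-ko difference passed (adjusted p = 0.0319 and 0.0315). The rise in Hs-578T MEK5DD libraries was 1.15 to 2.17 over the fits that left out a library and lost its call when only the 4 libraries compared were fitted (adjusted p = 0.135).

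CXCL1, CXCL2 and CXCL3, which act with CXCL8 on CXCR2, rose with MEK5DD in MDA-MB-231. CXCL1 (ENSG00000163739.4, chromosome 4, 73869393 to 73871242) had an RPKM of 1.12 and 1.73 in MDA-MB-231 parental controls, 1.17 and 1.73 in ERK5-ko and 3.20 and 3.25 in MEK5DD libraries. Parental and ERK5-ko values coincided, and MEK5DD values lay above both, at a log2 fold change against parental controls of 0.97 (adjusted p = 0.000482). CXCL3 (ENSG00000163734.4, chromosome 4, 74036589 to 74038807) followed the same order, with 0.471 and 0.734 in parental controls, 0.387 and 0.817 in ERK5-ko and 2.30 and 2.17 in MEK5DD libraries, a log2 fold change of 1.32 with MEK5DD (adjusted p = 0.000184). CXCL2 (ENSG00000081041.8, chromosome 4, 74097035 to 74099293) had 2.53 and 2.80 in parental controls, 3.22 and 4.34 in ERK5-ko and 4.18 and 4.59 in MEK5DD libraries. Its ERK5-ko and MEK5DD values overlapped, and its rise with MEK5DD, 0.63 (adjusted p = 0.0261), lost its call without any 1 of the 4 libraries compared (adjusted p from 0.0697 to 0.131). These values rest on 9 to 100 reads per library for the 3 genes.

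In Hs-578T neither CXCL2 nor CXCL3 passed against parental controls. CXCL2 had 1.17 and 0.799 RPKM in parental controls, 0.825 and 1.53 in ERK5-ko and 1.32 and 1.12 in MEK5DD libraries, and the 3 groups overlapped. CXCL3 had 0.935 and 1.08 in parental controls, 1.07 and 1.32 in ERK5-ko and 1.77 and 1.32 in MEK5DD libraries, a log2 fold change of 0.44 with MEK5DD (adjusted p = 0.12), which passed after quantile normalization (0.61, adjusted p = 0.0392). The change of CXCL3 with MEK5DD differed between the lines by 0.88 (adjusted p = 0.0217), and this call was lost in 5 of the 12 fits that left out a library.

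**Figure D3:**
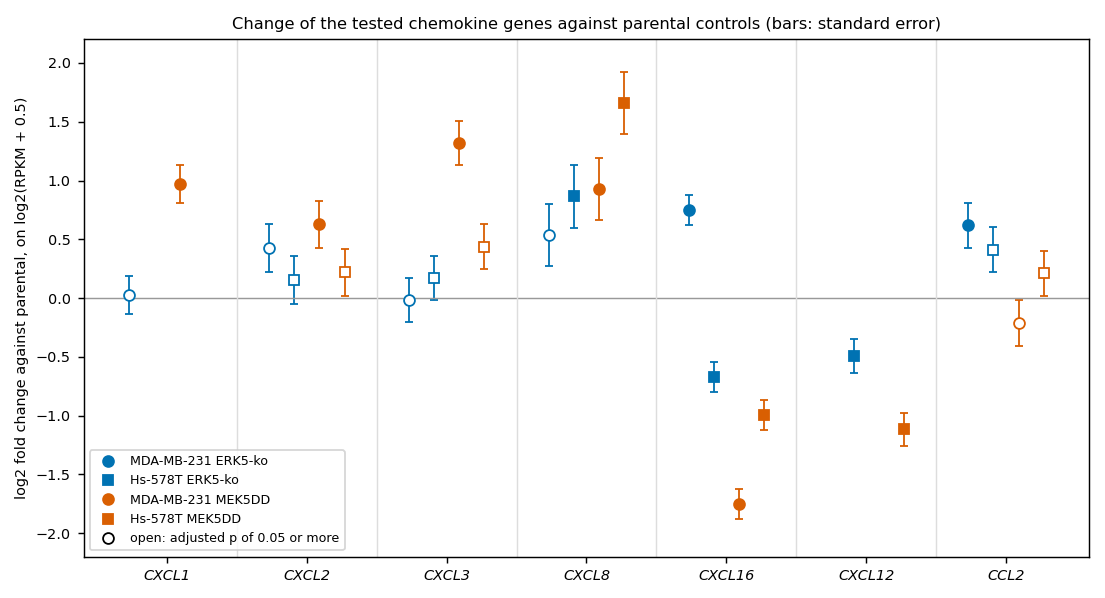
Log2 fold change on log2(RPKM + 0.5) against parental controls (vertical axis) of the 7 tested chemokine genes, for ERK5-ko (blue) and MEK5DD (orange) in MDA-MB-231 (circles) and Hs-578T (squares), with bars of 1 standard error and open symbols where the adjusted p is 0.05 or more. Genes with 3 reads or fewer in every library compared are left out. CXCL16 with ERK5-ko is the 1 tested gene that passes in opposite directions in the lines, at 0.75 and -0.67.

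CXCL16 (ENSG00000161921.14, chromosome 17, 4733526 to 4739922), the membrane-bound ligand of CXCR6, moved in opposite directions with ERK5-ko in the lines. In MDA-MB-231 its RPKM was 1.85 and 2.03 in parental controls, 3.14 and 4.12 in ERK5-ko and 0.254 and 0.192 in MEK5DD libraries, from 8 and 7 reads in the last group. In Hs-578T it was 2.90 and 3.02 in parental controls, 1.63 and 1.73 in ERK5-ko and 1.32 and 1.15 in MEK5DD libraries. No group overlapped another group of its line. With ERK5-ko it rose by a log2 fold change of 0.75 in MDA-MB-231 (standard error 0.128, adjusted p = 0.00238, limma) and fell by 0.67 on the log2 scale in Hs-578T (adjusted p = 0.00177), and the effects differed by 1.42 (adjusted p = 0.000129). With MEK5DD it fell in both lines, at log2 fold changes of -1.76 in MDA-MB-231 (adjusted p = 8.56e-07) and -0.997 in Hs-578T (adjusted p = 0.000326), a difference of -0.76 (adjusted p = 0.00637). In the ratio of mean RPKM, MEK5DD libraries of MDA-MB-231 held 0.115 times the parental level. Directions and calls of these comparisons with parental controls, and of both differences between the lines, held in all 12 fits that left out a library. When only the 4 libraries compared were fitted, the fall with MEK5DD in Hs-578T lost its call (adjusted p = 0.0637).

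CXCL12 (ENSG00000107562.16, chromosome 10, 44370165 to 44386493), the ligand of CXCR4, was transcribed in Hs-578T, where it fell with both alterations. Its RPKM was 378 and 355 in Hs-578T parental controls, 295 and 229 in ERK5-ko and 150 and 190 in MEK5DD libraries, 3 groups without overlap. In MDA-MB-231 it had no read in 5 libraries and 2 reads in MEK5DD replicate 2. The log2 fold change in Hs-578T was -0.49 with ERK5-ko (adjusted p = 0.0171) and -1.12 with MEK5DD (adjusted p = 0.000305). The first lost its call without parental replicate 1 (adjusted p = 0.082), without ERK5-ko replicate 2 (adjusted p = 0.187) and at a pseudocount of 0.1 (adjusted p = 0.087). When only the 4 libraries compared were fitted, both lost their calls (adjusted p = 0.0668 with ERK5-ko and 0.0773 with MEK5DD).

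CCL2 (ENSG00000108691.9, chromosome 17, 34255218 to 34257203), which attracts monocytes through CCR2, was a gene of Hs-578T, with 32.9 and 34.5 RPKM in parental controls, 42.9 and 47.1 in ERK5-ko and 45.7 and 33.3 in MEK5DD libraries. Both ERK5-ko values lay above the parental ones, but the log2 fold change, 0.41, did not pass (adjusted p = 0.113) unless only the 4 libraries compared were fitted (adjusted p = 0.0339). MEK5DD values overlapped the parental ones. In MDA-MB-231 CCL2 had 1 and 7 reads in parental controls, 10 and 11 in ERK5-ko and 3 and 0 in MEK5DD libraries. ERK5-ko passed against parental controls there (log2 fold change 0.62, adjusted p = 0.0474), but this was lost without parental replicate 1, whose 1 read sets the difference (0.35, adjusted p = 0.37), and in 6 of the other 11 fits that left out a library. Counted as reads, CCL2 was 7.63 times as high in ERK5-ko as in MEK5DD libraries of MDA-MB-231 (95% exact interval 2.28 to 39.9, for counting error only).

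CCL5 and CCL20, which attract T cells and, through CCR6, dendritic cells and lymphocytes, were barely transcribed. CCL5 (ENSG00000271503.5, chromosome 17, 35871491 to 35880793) had 13 and 6 reads in MDA-MB-231 parental controls, 8 and 10 in ERK5-ko and 1 and 1 in MEK5DD libraries, and 2 to 9 reads in the libraries of Hs-578T. Parental controls of MDA-MB-231 thus held 9.37 times as many CCL5 reads as MEK5DD libraries (95% exact interval 2.26 to 83, for counting error only). Without the filter on low values the log2 fold change was -0.62 (adjusted p = 0.0385). Of the 50-base stretches of CCL5 transcripts, 13.9% occur in other genes. CCL20 (ENSG00000115009.11, chromosome 2, 227813842 to 227817564) had 1 read in 4 MDA-MB-231 libraries and none in the other 8 libraries. Without the filter on low values CCL20 passed with ERK5-ko in MDA-MB-231 (log2 fold change -0.14, adjusted p = 0.00858) and against MEK5DD libraries (-0.14, adjusted p = 0.00168), where single reads stand against none, at or under the floor in every group, and no fold is given.

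Counted by comparison, ERK5-ko against parental controls passed for 2 of 7 tested members in MDA-MB-231 (CXCL16 and CCL2, both higher), where 17.3% of all genes tested passed, 6.91% higher and 10.4% lower, and for 3 of 7 in Hs-578T (CXCL8 higher, CXCL12 and CXCL16 lower), where 39.4% did, 19.7% in each direction. MEK5DD against parental controls passed for 5 of 7 in MDA-MB-231 (CXCL1, CXCL2, CXCL3 and CXCL8 higher, CXCL16 lower), beside 41.3% of all genes, 17.5% higher and 23.8% lower, and for 3 of 7 in Hs-578T (CXCL8 higher, CXCL12 and CXCL16 lower), beside 23.4%, 6.44% higher and 17.0% lower. With a fold of 1.5 up or 0.5 down asked for as well, CXCL8 alone passed of the 7 with ERK5-ko in Hs-578T, beside 12.6% of all genes. The effect of ERK5-ko differed between the lines for 1 of 7 members (CXCL16, higher in MDA-MB-231), beside 39.8% of all genes, 18.3% higher and 21.5% lower. The effect of MEK5DD differed for 4 (CXCL1, CXCL3 and CXCL12 higher, CXCL16 lower), beside 39.6%, 21.3% higher and 18.2% lower. For CXCL1 and CXCL12 this difference is the effect in 1 line alone. The median log2 fold change of the 7 members with MEK5DD was 0.63 for MDA-MB-231 and 0.21 for Hs-578T, against -0.01 and -0.08 over all genes tested. CXCL1 in Hs-578T and CXCL12 in MDA-MB-231 were at the floor in every library of that line, so they could not pass within it. The comparisons of a line share its parental controls.

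Between ERK5-ko and MEK5DD libraries, which share no library, 4 of 7 members passed in MDA-MB-231, where 55.0% of all genes did, 27.1% higher and 27.9% lower in ERK5-ko libraries. CXCL1 and CXCL3 were lower in ERK5-ko libraries, at log2 fold changes of -0.95 (adjusted p = 0.000366) and -1.34 (adjusted p = 9.91e-05), and CXCL16 was higher by 2.51 (adjusted p = 2.6e-08), as was CCL2. In Hs-578T 3 of 7 passed, beside 50.0% of all genes, 30.7% higher and 19.2% lower, and 1 of 7 (CXCL12) with the fold thresholds, beside 19.3%. CXCL8 was lower in ERK5-ko libraries, at -0.79 (adjusted p = 0.0281), CXCL12 was higher by 0.62 (adjusted p = 0.00369), and CXCL16 was higher by 0.33, at an adjusted p of 0.04996 that lost its call under 8 of the alternatives that kept all libraries. The CXCL8 difference was -0.28 (adjusted p = 0.272) without Hs-578T MEK5DD replicate 1. When only the 4 libraries compared were fitted, none of the 3 passed, at adjusted p of 0.187 for CXCL8, 0.073 for CXCL12 and 0.0843 for CXCL16. Passage labels are alike for these groups in Hs-578T, 8 and 9 in each.

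Of the receptors these ligands act on, few were transcribed in these cells. Of 23 receptor genes 20 have values and 5 were tested. CXCR2 had at most 1 read in a library, CCR2 at most 4 and CXCR6 at most 14. CXCR4, the signalling receptor of CXCL12, had 7.92 and 8.41 RPKM in MDA-MB-231 parental controls, 2.65 and 2.54 in ERK5-ko and 0.469 and 0.577 in MEK5DD libraries, and the groups did not overlap. The log2 fold changes of CXCR4 there were -1.48 (adjusted p = 1.11e-05) with ERK5-ko and -3.08 (adjusted p = 3.71e-09) with MEK5DD. In Hs-578T, CXCR4 had 20 and 18 reads in parental controls, 0 and 3 in ERK5-ko and 2 and 0 in MEK5DD libraries, 14.7 times as many in parental as in ERK5-ko libraries (95% exact interval 4.65 to 74.3, for counting error only). ACKR3, the scavenging receptor of CXCL12, fell in Hs-578T with ERK5-ko (-1.21, adjusted p = 4.11e-05) and MEK5DD (-1.78, adjusted p = 9.14e-06). In MDA-MB-231 ACKR3 rose with ERK5-ko (0.78, adjusted p = 0.00238), and it had no read in MEK5DD libraries against 23 and 39 in parental controls, at least 9.36-fold fewer at a floor of 3 reads per library. CCRL2, a non-signalling receptor, had 51.9 and 50.5 RPKM in MDA-MB-231 parental controls and 21.9 and 22.2 in MEK5DD libraries, a log2 fold change of -1.20 (adjusted p = 3.89e-05). CCR1, a receptor of several CC chemokines, fell with ERK5-ko in MDA-MB-231 (-0.83, adjusted p = 0.00336). In Hs-578T CCR1 rose (0.60, adjusted p = 0.00835), from 5 reads in the parental to 45 in the ERK5-ko libraries. CCR10, the receptor of CCL27 and CCL28, fell with ERK5-ko in Hs-578T (-0.56, adjusted p = 0.0454). Counted together, 1 receptor gene rose and 2 fell of the 5 with ERK5-ko in MDA-MB-231, beside 17.3% of all genes that passed, and 1 rose and 4 fell in Hs-578T, beside 39.4%. With MEK5DD 3 fell in MDA-MB-231, beside 41.3%, and 2 fell in Hs-578T, beside 23.4%.

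ADAM10, a protease that sheds CXCL16, had 219 and 200 RPKM in MDA-MB-231 parental controls, 252 and 209 in ERK5-ko and 107 and 108 in MEK5DD libraries, and its fall with MEK5DD passed (-0.96, adjusted p = 0.000267). In Hs-578T it rose with ERK5-ko (0.43, adjusted p = 0.0352) and fell with MEK5DD (-0.46, adjusted p = 0.0404). ADAM17, another protease that sheds membrane proteins, fell in Hs-578T with ERK5-ko (-0.46, adjusted p = 0.00523) and MEK5DD (-0.52, adjusted p = 0.00491). DPP4, a peptidase that trims and inactivates CXCL12, rose with ERK5-ko in MDA-MB-231 (1.40, adjusted p = 0.000584).

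Of 22 other chemokine genes with values, 6 were tested. In MDA-MB-231 MEK5DD libraries 4 fell and none rose, beside 23.8% of all genes that fell. CX3CL1, like CXCL16 a membrane-bound chemokine shed by ADAM proteases, had 5.56 and 4.93 RPKM in parental controls, 4.65 and 5.97 in ERK5-ko and 0.205 and 0.144 in MEK5DD libraries, a log2 fold change of -3.09 with MEK5DD (adjusted p = 5.06e-08). CXCL11, a ligand of CXCR3, had 56 reads in the 2 parental libraries and 3 in the 2 MEK5DD libraries, 18.4 times as many (95% exact interval 5.98 to 92.0, for counting error only). CCL26 and CCL28 fell there as well, by 0.65 (adjusted p = 0.0473) and by 0.34 (adjusted p = 0.036) on the log2 scale. CCL28 rose in MDA-MB-231 (0.66, adjusted p = 0.00336) and fell in Hs-578T (-0.85, adjusted p = 0.000221) with ERK5-ko, a difference of 1.51 (adjusted p = 5.08e-05) in the same sense as that of CXCL16. CCL7 and CCL11, neighbours of CCL2 on chromosome 17, had no read in MDA-MB-231. In Hs-578T CCL7 had 1 and 3 reads in parental controls and 12 and 12 in ERK5-ko libraries (log2 fold change 0.88, adjusted p = 0.00088). CCL7 met the filter only through the ERK5-ko libraries where it is high, so this call is no independent result. CCL11, the eosinophil attractant eotaxin, had 0.732 and 1.39 RPKM in Hs-578T parental controls, 0.85 and 0.959 in ERK5-ko and 4.82 and 3.31 in MEK5DD libraries, a log2 fold change of 1.56 with MEK5DD (adjusted p = 0.000236). CCL28 rose there too (0.62, adjusted p = 0.00351), and CX3CL1 fell in Hs-578T with ERK5-ko (-0.63, adjusted p = 0.00885) and MEK5DD (-0.62, adjusted p = 0.0164).

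Other genes known to respond to NF-kB did not share the direction of CXCL1, CXCL2, CXCL3 and CXCL8 in MDA-MB-231 MEK5DD libraries. Of 10 such genes, 9 fell and none rose, beside 23.8% of all genes that fell, with a median log2 fold change of -0.98 against -0.01 over all genes tested. This list, like the members, was chosen with earlier results of these data known, so the contrast is a description. The adhesion molecule ICAM1 had 60.7 and 64.6 RPKM in parental controls and 24.5 and 27.5 in MEK5DD libraries (-1.25, adjusted p = 1.1e-05), and the cytokine CSF2, at -1.62 (adjusted p = 1.52e-05), and the signalling adaptor TRAF1, at -1.28 (adjusted p = 0.000227), fell too, as did TNFAIP2, at -1.11 (adjusted p = 1.89e-05). In Hs-578T MEK5DD libraries 6 of the 10 rose and 1 fell, beside 6.44% and 17.0% of all genes. Among those that rose were IL1B at 1.94 (adjusted p = 4.66e-06) and ICAM1 at 1.26 (adjusted p = 5.81e-05). IL1A rose by 1.02 (adjusted p = 0.000502), from 7 reads in the parental to 58 in the MEK5DD libraries, while TRAF1 fell (-0.97, adjusted p = 0.00421). The effect of MEK5DD differed between the lines for 9 of the 10, each lower in MDA-MB-231, beside 18.2% of all genes. With ERK5-ko, 4 of the 10 rose and none fell in MDA-MB-231, beside 6.91% of all genes that rose. IL6 led at 1.42 (adjusted p = 3.92e-05), followed by IL1B at 1.24 (adjusted p = 7.69e-05), from 10 reads in the parental to 50 in the ERK5-ko libraries. In Hs-578T 6 rose and none fell, beside 19.7% that rose, led by BIRC3 at 1.81 (adjusted p = 1.72e-05) and ICAM1 at 0.97 (adjusted p = 0.000127).

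**Figure D4:**
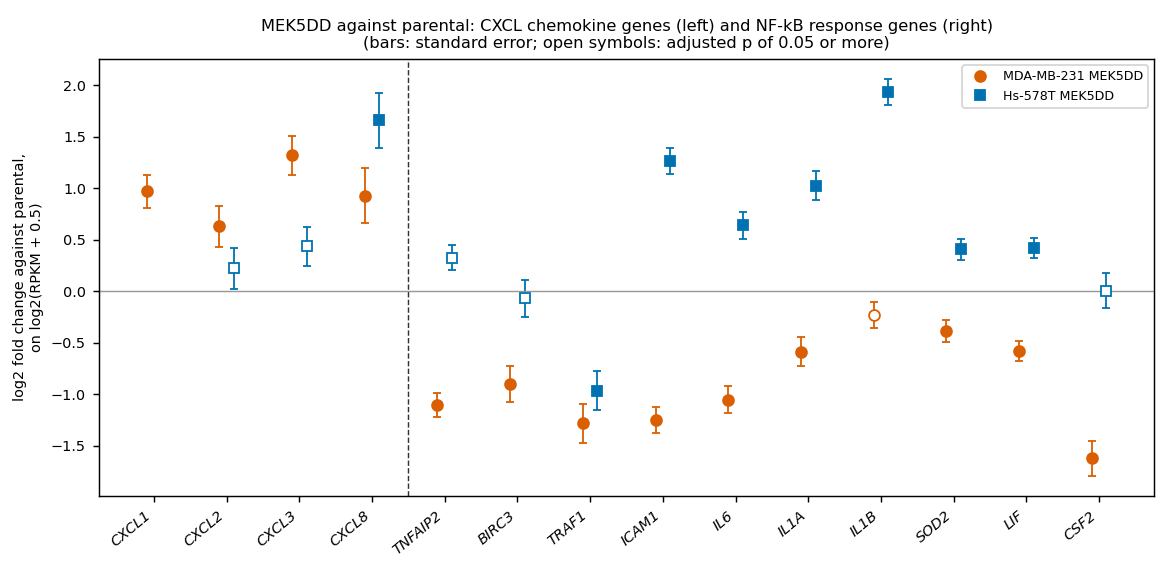
Log2 fold change on log2(RPKM + 0.5) of MEK5DD against parental libraries (vertical axis) for CXCL1, CXCL2, CXCL3 and CXCL8 and for 10 NF-kB response genes, in MDA-MB-231 (circles) and Hs-578T (squares), with bars of 1 standard error and open symbols where the adjusted p is 0.05 or more. In MDA-MB-231 the 4 chemokine genes lie above 0 and 9 of the 10 other genes pass below 0. CXCL1 has no read in Hs-578T and is not drawn there.

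Of 14 genes of NF-kB factors, kinases and inhibitors, 3 rose and 4 fell with MEK5DD in MDA-MB-231, a share near the 41.3% of all genes that passed. Those that fell included the factor RELB (-1.03, adjusted p = 6.26e-05), the cofactor BCL3 (-1.01, adjusted p = 6.88e-05) and the inhibitor NFKBIA (-0.96, adjusted p = 7.69e-05), and NFKBIB rose (0.54, adjusted p = 0.0012). In Hs-578T 2 rose and 5 fell with MEK5DD, beside 23.4% of all genes that passed, the inhibitor TNFAIP3 most (-0.99, adjusted p = 0.000138). With ERK5-ko, NFKBIZ fell in MDA-MB-231 (-0.69, adjusted p = 0.00173) as the only gene of the 14 that passed there, beside 17.3% of all genes that passed and 10.4% that fell. In Hs-578T 4 rose with ERK5-ko, led by NFKB2 (0.66, adjusted p = 0.000554), and 2 fell, NFKBIA (-0.66, adjusted p = 0.00154) and TNFAIP3 (-0.54, adjusted p = 0.00275), a share near the 39.4% of all genes that passed.

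Over the 12 libraries, the genes whose log2(RPKM + 0.5) followed that of CXCL8 most closely among 12423 protein-coding genes that averaged 1 RPKM or more were KRT34 (Pearson's r = 0.896), VDAC2 (0.881) and RPL34 (0.869). The points share their cell line, label and sequencing depth, and these values are a description.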

How the data were processed

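RNA sequencing values of 12 libraries were grouped by cell line and label. The authors deposited RPKM values, made from reads on each gene scaled to its length and to the library total. Per the submitters' processing notes, bcl2fastq, Trimmomatic 0.32, TopHat2 2.1.1, R 3.3.1, DESeq2 1.12.4 and the build GRCh38 were used, and the counting tool is not given in the sources used here. The library kit, TruSeq Stranded mRNA, keeps the strand. Solving for library totals and gene lengths turned the RPKM of all 32152 genes into whole reads, within 0.001 of a read, and these reads served for floors (3 reads per library) and 1 alternative. The recovery and the fit were tested on simulated data.

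The 13737 protein-coding genes that reached 0.5 RPKM in 2 or more libraries entered 1 fit of limma 3.58.1 (R 4.3.3) on log2(RPKM + 0.5), with 6 group means and a variance trend, and each comparison had its own Benjamini-Hochberg adjustment. For a single gene, 2 against 2 libraries allow no two-sided exact permutation p under 0.333. The 2 libraries of a group bear successive passage labels, and no source says that they are independent cultures. The p values therefore measure the spread between libraries of successive passages, which may be technical in part. No group had 2 libraries alike within sampling noise. The mean chi-square of a gene against sampling noise was 30.7 in Hs-578T parental controls and 42.2 in Hs-578T MEK5DD libraries. It was 2.82 to 8.92 in the other groups. The fit shares its estimate of the spread over all groups and does not follow this difference. The members, the gene lists and the tests were chosen with earlier results of these data known. Besides all members, passing genes of a list were named from the 4 of largest absolute change in a comparison, and not each of the 4 is named. Promoter sequences are those of RefSeq on GRCh38.p14, and transcripts and overlaps those of GENCODE 29. Alternatives changed the pseudocount, filter, scaling, libraries, gene types, fold thresholds and test. Python 3.11.15 with numpy 2.4.6, pandas 2.3.3 and, for plots, matplotlib 3.10.9 did the rest. Values of 2 genes of the receptor and marker lists are not reported here.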

Additional observations from a re-analysis of the deposited data

Results flagged for a closer look

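The change between parental and engineered libraries differed between the lines, by a test of the difference itself in limma, for these members. For CXCL16 the effect of ERK5-ko was 1.42 higher in MDA-MB-231 than in Hs-578T on the log2 scale (adjusted p = 0.000129) and that of MEK5DD differed by -0.76 (adjusted p = 0.00637). For CXCL3 the effect of MEK5DD was 0.88 higher in MDA-MB-231 (adjusted p = 0.0217). For CXCL1, at 0.97 (adjusted p = 0.00554), and CXCL12, at 1.20 (adjusted p = 0.000716), the difference in the effect of MEK5DD is that of 1 line alone, since CXCL1 had no read in Hs-578T and CXCL12 had 2 reads in all in MDA-MB-231. Beside these results, 39.8% of all genes tested differed between the lines in the effect of ERK5-ko and 39.6% in that of MEK5DD. MAP2K5 rose by 3.26 more on the log2 scale in MDA-MB-231 than in Hs-578T MEK5DD libraries, and its part in the differences was not tested. Groups of 2 libraries were not searched for outliers.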

How the results depend on the processing

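Over 23 alternatives to each of 57 fitted member values, 1198 of 1311 kept direction and side of the threshold, 85 lost their call, 9 gained one and 19 changed sign, none of them a value that had passed. The cause was not tested. With ERK5-ko in MDA-MB-231, 1 member passed instead of 2 at a pseudocount of 0.1 or 1, after quantile normalization, with only the libraries compared, with all gene types and with limma voom on the reads, and 1 to 3 passed without 1 library. With ERK5-ko in Hs-578T, 1 of 3 kept its call under the fold thresholds, and 1 to 3 passed without 1 library. With MEK5DD, 3 to 5 passed in MDA-MB-231 without 1 library, and 0 of 3 in Hs-578T when only the 4 libraries compared were fitted by limma, where CXCL8, CXCL12 and CXCL16 had adjusted p of 0.135, 0.0773 and 0.0637. Between ERK5-ko and MEK5DD libraries of Hs-578T, 1 passed without the filter, 1 under the fold thresholds, 0 with only the libraries compared and 1 to 3 without 1 library. The effect of ERK5-ko differed between the lines for 2 members without the filter (CXCL16 and CCL20, which has at most 1 read in a library) and 2 with only the libraries compared (CXCL16 and CXCL12) (1 to 2 without 1 library), and that of MEK5DD for 2 under voom. Without Hs-578T MEK5DD replicate 2 the effect of MEK5DD on CXCL8 also differed between the lines (-1.25, adjusted p = 0.00248, limma).

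Without 1 library, CXCL1 with ERK5-ko in MDA-MB-231 ranged from -0.21 to 0.26, as did its difference between the lines. CXCL2 with ERK5-ko ranged from -0.15 to 0.46 against parental and from -0.37 to 0.24 against MEK5DD libraries in Hs-578T, and from -0.0337 to 0.58 as a difference between the lines. CXCL3 with ERK5-ko in MDA-MB-231 ranged from -0.30 to 0.27, was 0.0181 after median-ratio scaling and 0.0707 after quantile normalization, and ranged from -0.47 to 0.10 as a difference between the lines. CCL2 with MEK5DD ranged from -0.48 to 0.0538 in MDA-MB-231 and from -0.0157 to 0.43 in Hs-578T, from -0.0233 to 0.43 between ERK5-ko and MEK5DD libraries of Hs-578T, and from -0.0576 to 0.48 as a difference between the lines with ERK5-ko, which was -0.0279 at a pseudocount of 1.

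Replicate numbers recur in every group, but no source ties a number to a shared batch. Deviations of same-numbered libraries correlated at 0.107 to 0.541 over 6 pairs of groups. A replicate block changed no call of a member and left the counts at 2 and 5 for ERK5-ko and MEK5DD in MDA-MB-231 and at 3 and 3 in Hs-578T. Depth limits CCL5, CCL20 and, in MDA-MB-231, CCL2 and CXCL12, which rest on at most 13 reads in a library.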
